A study of Rattus norvegicus with 6 samples.

Results

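The genes described here make sterols and fatty acids: 34 genes chosen by symbol, all 34 of them found among the 17172 genes and loci measured. They comprise 19 enzymes of the route from acetyl-CoA to cholesterol, counting Ggps1, which lies on a side branch of it. A further 5 genes regulate this pathway or carry its product, and 10 enzymes make, elongate or desaturate fatty acids. Poly(A) RNA was sequenced from c-kit+ bone marrow cells of 6 ACI rats aged 6 to 8 weeks. In the PHZ group, 3 rats received an intraperitoneal injection of phenylhydrazine at 100 mg/kg, a compound that damages red cells and causes haemolytic anaemia. In the PBS group, 3 rats received phosphate-buffered saline. Marrow of the hind legs was taken 36 h later, and cells bearing c-kit, a receptor tyrosine kinase of blood progenitors, were enriched with a biotin-labelled antibody on streptavidin particles without a column. Each rat gave 1 library. By label each group held 2 females and 1 male.

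Cells make cholesterol from acetyl-CoA by way of mevalonate, prenyl diphosphates, squalene and lanosterol. The same prenyl diphosphates supply coenzyme Q, dolichol and protein prenylation. Fatty acids are built from cytosolic acetyl-CoA and malonyl-CoA, then elongated and desaturated in the endoplasmic reticulum. Transcription of both branches is driven by SREBP factors, which the protein SCAP escorts to the Golgi for cleavage when membrane sterol is low and which INSIG proteins hold back when it is high. Dividing haematopoietic cells need both products for new membrane, and maturing red cells later remodel their membrane lipids.

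The libraries held 13196249 to 19492793 expected counts, and a member had between 8 and 3981 counts in a library. Levels below are counts relative to library size (CPM), scaled between libraries by TMM, a factor that balances the bulk of the genes, unless FPKM, the authors' level per transcript length, is named. Transcripts of Y-linked genes went against the sex label in 3 libraries. PHZ replicate 3 and PBS replicate 1, both labelled female, had 162 and 209.97 CPM of them before TMM scaling, and PBS replicate 2, labelled male, had 0.0615 CPM. A wrong sex label and a wrong library label cannot be told apart here, and a wrong library label could also touch the group to which a library is assigned. Kit transcript had 33.9, 55.1 and 71.6 CPM in PHZ libraries and 54.9, 63.9 and 51.7 CPM in PBS libraries. The 6 libraries include no unselected marrow, so these values cannot show how far c-kit+ cells were enriched. The marrow cells behind these libraries also differed in lineage transcripts. Of 9 tested erythroid markers, 6 were called higher, and the sum of the list ran from 11929 to 19081 CPM in PHZ and from 5820 to 8306 CPM in PBS libraries. Of 9 B lineage markers 7 were called lower, with sums of 265 to 398 CPM in PHZ, against 783 to 1109 CPM in PBS libraries, and of 11 neutrophil markers 2 were called lower, with sums of 6061 to 12145 CPM in PHZ libraries, against 13041 to 26908 CPM in PBS libraries. Stromal and endothelial markers, of which 2 of 6 were called lower, summed to 31.7 to 50.5 CPM in PHZ libraries, against 84.7 to 595 CPM in PBS libraries, where replicate 1 was highest. Of 8 T and NK markers 6 were called lower, with sums of 67.8 to 97.2 CPM in PHZ libraries, against 71.6 to 194 CPM in PBS libraries. Of 5 stem and early progenitor markers 2 were called lower, Procr and Thy1, and the list summed to 127 to 199 CPM in PHZ libraries, against 164 to 244 CPM in PBS libraries. None of 9 monocyte and macrophage markers was called, with sums of 1522 to 1983 CPM in PHZ libraries, against 4126 CPM in PBS replicate 1 and 1429 and 1623 CPM in PBS replicates 2 and 3. In such bulk RNA, more cells of a type cannot be told apart from more transcript per cell, and the part of these lineage shifts in the results below was not tested.

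PHZ libraries had more transcript of 5 of the 34 genes and less of none. The 5 were Sqle and Fdps of the sterol branch and Fads1, Fads2 and Elovl1 of the fatty acid branch, with rises of 1.42-fold to 2.75-fold (edgeR quasi-likelihood test, Benjamini-Hochberg adjusted p under 0.05 over 13547 genes). Over all tested genes 13.2% were called, 8.99% higher and 4.17% lower in PHZ. Genes that were not called were not thereby shown to be unchanged. In simulated data the same test found 15 of the 100 genes that had been given a 2-fold change. It made 92 calls there, 10 of them false, against 1783 calls in the real data. The adjusted p depends on how many genes change, so this simulation cannot give the recovery rate for the real data. The median log2 fold change was 0.41 over the 34 genes and -0.04 over all tested genes, and 25 of 34 estimates were above 0, against 47.6% of all. The median over the 34 genes was 0.27 without PHZ replicate 1 and 0.26 with limma on log2(FPKM + 1). All 3 PHZ values exceeded all 3 PBS values in CPM in 15 of the 34 genes, against 22.5% of all tested genes, and all were below them in 0 of 34, against 19.2% (41.7% in either direction). On the FPKM scale, which lacks the TMM factor, 11 of the 34 were separated with PHZ higher, against 19.2% of all tested genes, and 0 with PHZ lower, against 18.6%. Calls across the whole table were 68.3% higher in PHZ, 58.7% with upper-quartile scaling and 56.8% with DESeq2, which called 9 of the 34 genes, all higher, against 13.4% of its genes called higher and 23.6% in either direction.

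**Figure D1:**
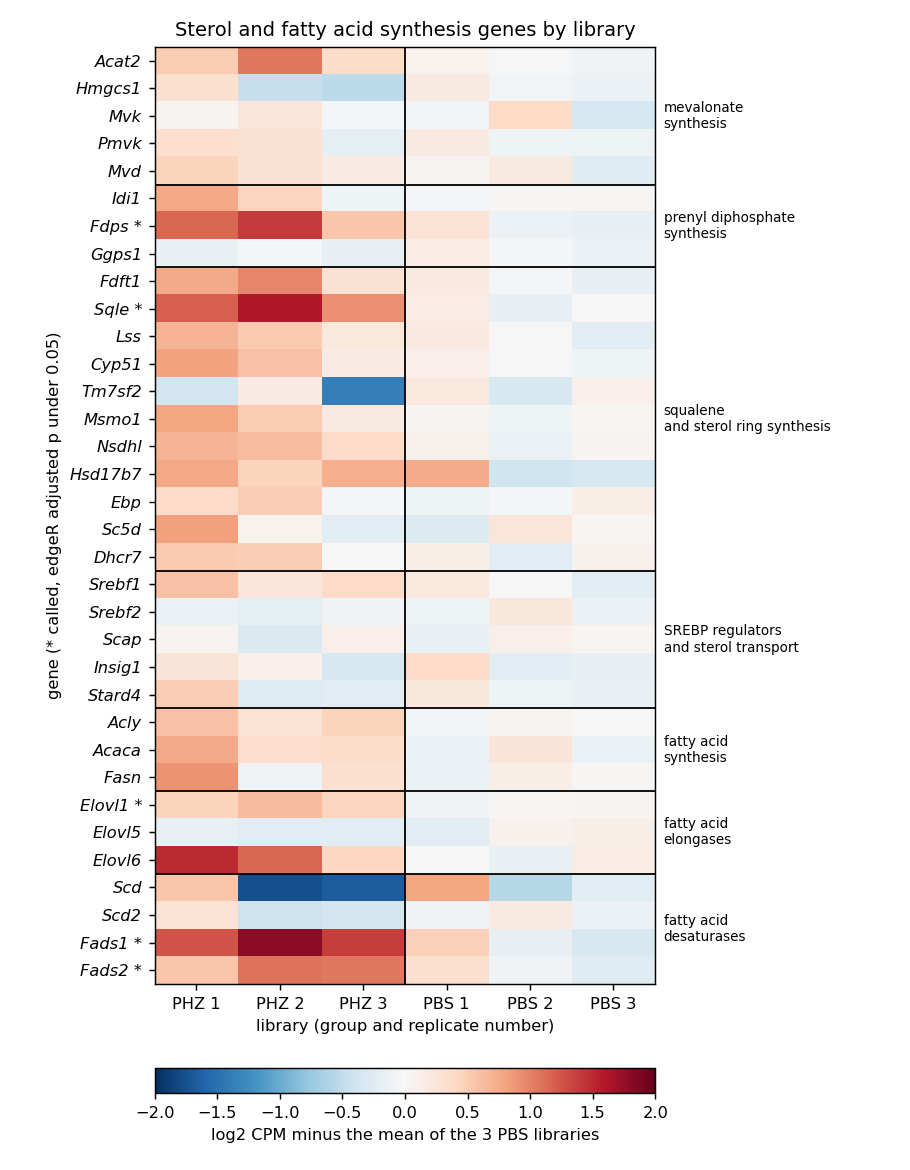
Level of each of the 34 genes (rows, grouped by role) in each library (columns, PHZ left of the line and PBS right of it), as log2 CPM minus the mean of the 3 PBS libraries; red is higher, blue is lower, and asterisks mark the 5 called genes. Sqle, Fdps, Fads1 and Elovl6 are red in all PHZ libraries, while Hmgcs1 and Scd are red in PHZ replicate 1 and blue in PHZ replicates 2 and 3.

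The opening steps of the sterol branch were not called. Acat2, the cytosolic thiolase that joins acetyl-CoA units, had 9.20, 13.4 and 8.35 CPM in PHZ libraries and 6.74, 6.46 and 6.09 CPM in PBS libraries. The groups were separated, by a log2 fold change of 0.68 ± 0.24 (SE; edgeR adjusted p = 0.102). Hmgcs1, the HMG-CoA synthase that sits at the start of the mevalonate route, had 31.4, 18.2 and 17.5 CPM in PHZ libraries and 28.4, 24.3 and 23.2 CPM in PBS libraries. Here the PHZ values lay on either side of the PBS range (log2 fold change -0.18 ± 0.25 SE, edgeR adjusted p = 0.656). The kinases Mvk and Pmvk and the decarboxylase Mvd, which turn mevalonate into isopentenyl diphosphate, had log2 fold changes of 0.07, 0.16 and 0.30. Mvk had 10.1 to 12.2 CPM in PHZ libraries, against 8.06 to 13.6 CPM in PBS libraries, Pmvk 5.21 to 7.54 CPM in PHZ libraries, against 5.57 to 6.81 CPM in PBS libraries, and Mvd 13.6 to 16.6 CPM in PHZ libraries, against 10.2 to 13.8 CPM in PBS libraries. The groups overlapped for all 3.

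Among enzymes of prenyl diphosphates, Fdps rose and its neighbours in the route were not called. Fdps (Entrez gene 83791), the farnesyl diphosphate synthase at the branch point between sterols and other isoprenoids, had 72.2, 85.4 and 47.8 CPM in PHZ libraries. Its PBS values were 39.4, 29.9 and 28.8 CPM. The lowest PHZ value stood above the highest PBS value, and the rise was 2.09-fold (log2 1.07 ± 0.24 SE, edgeR adjusted p = 0.0385). Idi1, the isomerase that acts just before it, had 38.2, 30.0 and 20.8 CPM in PHZ, against 21.5, 22.4 and 22.6 CPM in PBS libraries, so that PHZ replicate 3 lay below all PBS libraries (edgeR adjusted p = 0.232). Ggps1, which extends farnesyl to geranylgeranyl diphosphate for protein prenylation, had 11.7 to 12.9 CPM in PHZ, against 12.1 to 14.6 CPM in PBS libraries.

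Of the 11 enzymes from squalene to cholesterol, Sqle was called and 10 of the 11 had estimates above 0. Sqle (Entrez gene 29230), squalene epoxidase, an oxygen-requiring step that commits squalene to sterols, had 20.3, 26.7 and 16.6 CPM in PHZ libraries and 9.78, 7.80 and 8.84 CPM in PBS libraries. Every PHZ value was well above the PBS range, a 2.41-fold rise (log2 1.27 ± 0.22 SE, edgeR adjusted p = 0.0229). Fdft1, the squalene synthase that feeds it, had 45.0, 52.5 and 32.9 CPM in PHZ, against 30.4, 26.1 and 23.7 CPM in PBS libraries (edgeR adjusted p = 0.0644). Nsdhl, a dehydrogenase that helps remove methyl groups from the sterol ring, had 22.7, 21.6 and 18.5 CPM in PHZ, against 14.9, 12.8 and 14.6 CPM in PBS libraries (edgeR adjusted p = 0.0547). Both pairs of groups were separated, and DESeq2 called both genes (adjusted p = 0.0243 for Fdft1 and 0.0222 for Nsdhl). Lss, the lanosterol synthase that closes the rings, had 15.6, 14.0 and 11.2 CPM in PHZ libraries, against 11.2, 9.72 and 8.38 CPM in PBS libraries. Cyp51, the lanosterol demethylase, had 53.4, 46.0 and 33.9 CPM in PHZ libraries, against 32.6, 30.2 and 28.6 CPM in PBS libraries. Msmo1, a methylsterol oxidase, had 22.7, 18.8 and 14.9 CPM in PHZ libraries, against 13.7, 12.3 and 13.4 CPM in PBS libraries. These 3 also had separated groups in CPM without being called (edgeR adjusted p = 0.154, 0.0927 and 0.111), by little for Lss, and on the FPKM scale the groups of Lss and Cyp51 overlapped. The groups overlapped for Ebp, the sterol isomerase, Sc5d, a sterol desaturase, and Dhcr7, the reductase that ends 1 route to cholesterol, with log2 fold changes of 0.28 to 0.36. The estimate for Sc5d leaned on PHZ replicate 1, which had 26.7 CPM, against 15.9 and 12.9 CPM in the other PHZ libraries and 12.4, 17.8 and 15.5 CPM in PBS libraries. Hsd17b7 and Tm7sf2, both sterol reductases, were the least abundant of the 11 per length. Hsd17b7 had 1.09 ± 0.24 FPKM in PHZ and 0.747 ± 0.419 FPKM in PBS libraries, and Tm7sf2 had 0.870 ± 0.404 FPKM in PHZ and 1.25 ± 0.24 FPKM in PBS libraries (SD, n = 3).

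The regulators of the pathway were not called. Srebf2, the SREBP factor that favours sterol genes, had 96.0, 93.7 and 100.2 CPM in PHZ libraries and 98.2, 124 and 97.0 CPM in PBS libraries. Srebf1, the factor that favours fatty acid genes, had 54.3, 42.8 and 47.2 CPM in PHZ libraries and 41.8, 36.3 and 30.9 CPM in PBS libraries, with all PHZ values above the PBS values in CPM but not in FPKM (log2 fold change 0.41 ± 0.16 SE, edgeR adjusted p = 0.132). Scap, the SREBP escort, had 36.2 to 47.5 CPM in PHZ, against 40.2 to 47.9 CPM in PBS libraries. Insig1, itself a target of SREBP in other tissues, had 49.6, 44.6 and 32.6 CPM in PHZ, against 54.1, 36.0 and 37.0 CPM in PBS libraries, and PHZ libraries averaged 42.3 ± 8.7 CPM, against 42.4 ± 10.1 CPM for PBS libraries (SD, n = 3). Stard4, which carries cholesterol between membranes, had 5.31 to 9.01 CPM in PHZ, against 5.76 to 7.53 CPM in PBS libraries. These 5 genes had a median log2 fold change of -0.00.

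**Figure D2:**
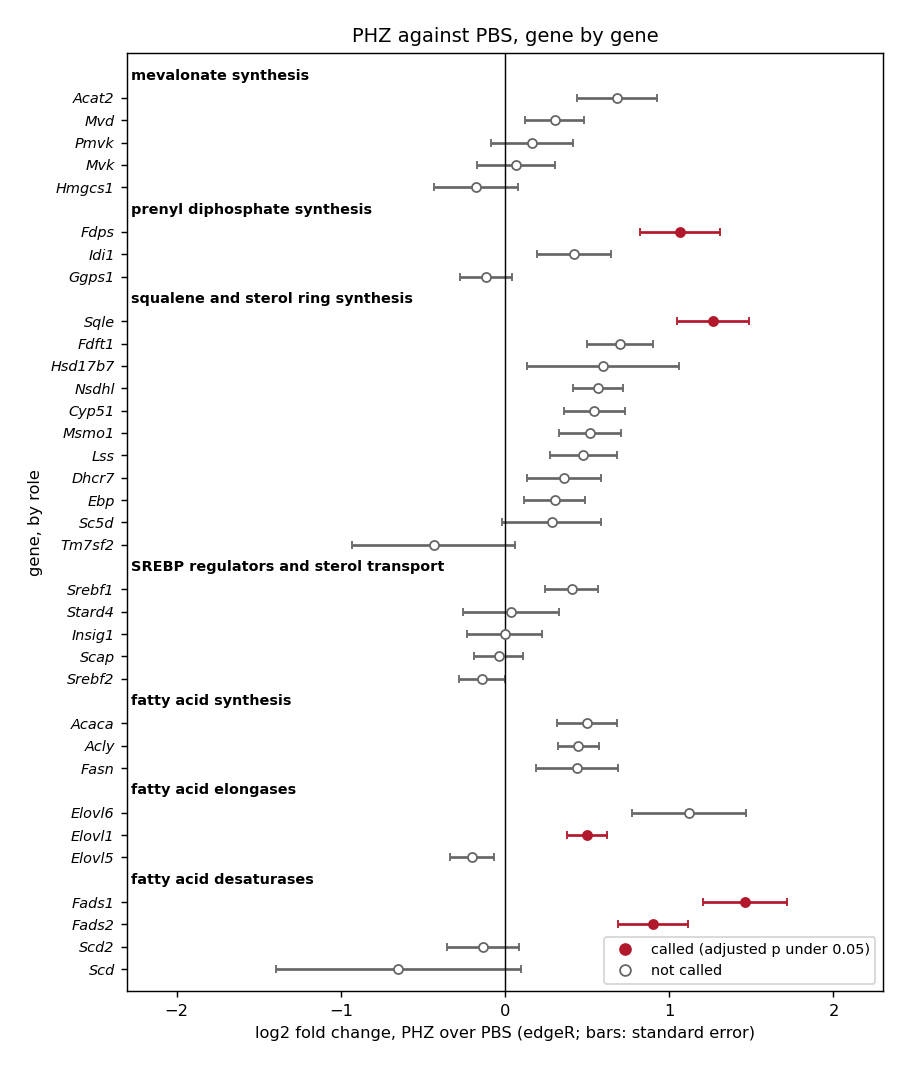
Log2 fold change of PHZ over PBS for each gene (points, with bars for the standard error), ordered by role; red points are called. The 5 called genes lie between 0.50 and 1.46, the regulators lie between -0.14 and 0.41, and Scd, at -0.65, has the widest bar.

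The genes of fatty acid synthesis proper had higher estimates in PHZ but were not called. Acly, the citrate lyase that releases cytosolic acetyl-CoA for both branches, had 156, 127 and 142 CPM in PHZ libraries and 99.8, 108 and 105 CPM in PBS libraries. The groups were separated in CPM but overlapped in FPKM, and the log2 fold change was 0.45 ± 0.13 (SE; edgeR adjusted p = 0.0603; DESeq2 adjusted p = 0.00787). Acaca, acetyl-CoA carboxylase, the rate-setting step of fatty acid synthesis, had 37.3, 28.2 and 28.5 CPM in PHZ, against 20.2, 26.3 and 20.0 CPM in PBS libraries (edgeR adjusted p = 0.110). Fasn, the fatty acid synthase, had 81.9, 41.5 and 54.5 CPM in PHZ, against 39.8, 47.3 and 44.3 CPM in PBS libraries, and PHZ replicate 1 alone stood far above the rest.

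The elongases differed among themselves. Elovl1 (Entrez gene 679532), which elongates saturated and monounsaturated chains to very long ones, had 189, 214 and 187 CPM in PHZ libraries and 132, 141 and 144 CPM in PBS libraries. The groups were well separated for a rise of 1.42-fold (log2 0.50 ± 0.12 SE, edgeR adjusted p = 0.0435). Elovl5, which elongates polyunsaturated chains, had 118, 112 and 111 CPM in PHZ, against 113, 139 and 141 CPM in PBS libraries (log2 fold change -0.20 ± 0.13 SE, edgeR adjusted p = 0.319). In FPKM, the ratio of Elovl1 to Elovl5 was 2.11 ± 0.26 in PHZ and 1.27 ± 0.13 in PBS libraries (SD, n = 3). The 3 PHZ ratios lay above the 3 PBS ratios, but Elovl1 alone was already separated in FPKM, so the ratio is no separate finding. Elovl6, which elongates palmitate, was a low transcript, at 7.73, 6.06 and 3.60 CPM in PHZ, against 2.67, 2.39 and 2.95 CPM in PBS libraries. Its estimate of 2.17-fold was larger than that of Elovl1, but its PHZ values were spread wider and it was not called (edgeR adjusted p = 0.0769; DESeq2 adjusted p = 0.0358).

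Among desaturases, both polyunsaturated fatty acid enzymes rose and both stearoyl-CoA desaturases were not called. Fads1 (Entrez gene 84575), which introduces a late double bond of arachidonate and its relatives, had 119, 173 and 130.1 CPM in PHZ libraries and 69.0, 44.5 and 39.8 CPM in PBS libraries. All PHZ values lay above all PBS values, the largest rise of the 34 genes, 2.75-fold (log2 1.46 ± 0.25 SE, edgeR adjusted p = 0.0229). Fads2 (Entrez gene 83512), which introduces the earlier double bond in the same route, had 66.8, 97.2 and 94.7 CPM in PHZ, against 56.8, 43.3 and 38.3 CPM in PBS libraries, 1.87-fold higher (log2 0.90 ± 0.21 SE, edgeR adjusted p = 0.0410). The groups did not overlap for either gene, though for Fads2 PHZ replicate 1 and PBS replicate 1 were close. In the RefSeq assembly GRCr8 Fads1 and Fads2 are neighbours on chromosome 1. Scd2, a stearoyl-CoA desaturase that makes monounsaturated fatty acids, had 74.5, 45.6 and 47.4 CPM in PHZ, against 58.2, 69.3 and 56.5 CPM in PBS libraries. Its near-identical relative Scd had 9.77, 1.87 and 1.99 CPM in PHZ, against 11.5, 4.42 and 5.63 CPM in PBS libraries, so that both libraries numbered 1 stood above the rest of their groups. How the counting divided reads between such relatives is not given in the sources used here, so the single values of Scd and Scd2 are uncertain. Without both libraries numbered 1, edgeR called Scd lower in PHZ (log2 fold change -1.36, adjusted p = 0.0414).

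**Figure D3:**
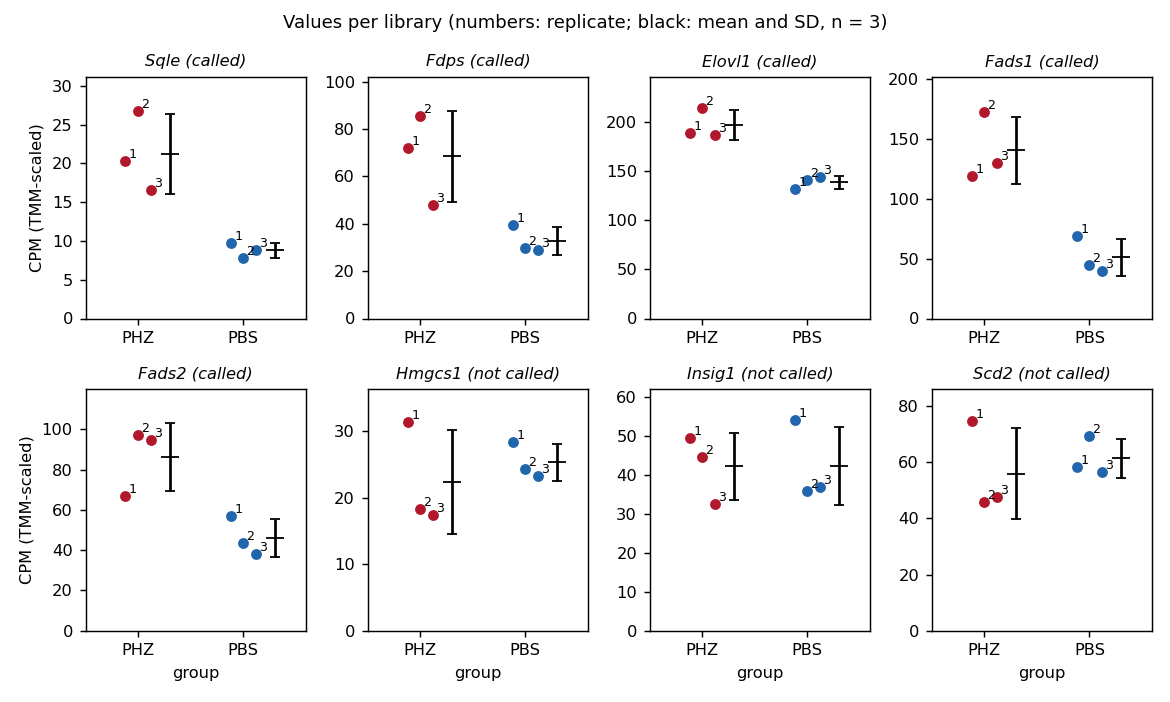
Level in each library (points, numbered by replicate; y axis TMM-scaled CPM from 0) of the 5 called genes and of Hmgcs1, Insig1 and Scd2, which were not called; black bars are the mean and SD of 3 libraries. For the called genes the lowest PHZ point lies above the highest PBS point, while for the other 3 the points of both groups overlap.

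The calls depended on which rats were included. With PBS replicate 2, PBS replicate 3 or PHZ replicate 2 left out, edgeR called 0 of the 34 genes, with smallest adjusted p values among the 5 genes of 0.102, 0.117 and 0.0604 and with 9, 9 and 12 of the 34 at an unadjusted p under 0.05. Over the whole table the same 3 fits called 0, 0 and 266 genes, so the loss of calls was not particular to the 34. Log2 fold changes over the 6 fits that leave out 1 library ran from 1.29 to 1.74 for Fads1, from 1.07 to 1.42 for Sqle, from 0.88 to 1.28 for Fdps, from 0.79 to 1.08 for Fads2 and from 0.44 to 0.54 for Elovl1. Elovl1 was called in none of these fits. Of the 16 alternatives, only DESeq2 called it (adjusted p = 0.00309), and its edgeR adjusted p was 0.0517 with no expression filter and 0.0609 with upper-quartile scaling. Without PHZ replicate 1 Fdps was not called (edgeR adjusted p = 0.0680), and without PHZ replicate 3 neither were Fads1 (0.0553) and Fads2 (0.101). With the 3 libraries against their sex label left out, which leaves 2 PHZ libraries and 1 PBS library, the lone PBS library assumed to vary like the PHZ libraries, log2 fold changes were 1.88 for Fads1, 1.45 for Fdps, 1.41 for Sqle, 1.10 for Fads2 and 0.48 for Elovl1, and edgeR called no gene of the whole table (1480 at an unadjusted p under 0.05, 5 of them among the 34).

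The PHZ libraries did not share 1 order across the genes. PHZ replicate 1 had the highest PHZ value in 21 of the 34 genes, PHZ replicate 2 in 11 and PHZ replicate 3 in 2. In TMM-scaled CPM, all 5 called genes were highest in PHZ replicate 2. In FPKM this held for Sqle and Fads1 only. There Fdps (64.1, against 61.5 FPKM in PHZ replicate 2) and Elovl1 (91.9, against 89.2 FPKM) were highest in PHZ replicate 1. Fads2 (56.5, against 51.5 FPKM) was highest in PHZ replicate 3. PHZ replicate 2 also had the highest PHZ values of the erythroid genes Klf1 (683 CPM, against 367 and 493 CPM in PHZ replicates 1 and 3) and Tfrc (2785 CPM, against 1993 and 2027 CPM). Klf1 had 203, 174 and 177 CPM and Tfrc 900.2, 509.9 and 622 CPM in PBS libraries. The part of erythroid content in the rises was not tested. The median over the 34 genes of log2 CPM minus the PBS mean was 0.56, 0.33 and 0.16 in PHZ replicates 1, 2 and 3 and 0.09, -0.03 and -0.10 in PBS replicates 1, 2 and 3. Summed over the 34 genes, levels were 1552, 1493 and 1335 CPM in PHZ, against 1135, 1144 and 1069.8 CPM in PBS libraries, so that the groups did not overlap in this sum. It contains the 5 called genes, whose groups were already separated, so the sum is no separate finding. Adipocytes also express many of these genes, and their part in the results was not tested. Of their defining genes, Adipoq had at most 0.664 CPM and Plin1 at most 0.0948 CPM in any PHZ library, and they had at most 0.116 CPM and 0 CPM in PBS libraries. The 6 adipocyte markers in the files summed to 259 to 318 CPM in PHZ, against 194 to 700.2 CPM in PBS libraries, mostly from Cfd, at 130.03 to 199 CPM in PHZ libraries, against 154 to 527 CPM in PBS libraries, and Fabp4, at 66.9 to 136 CPM in PHZ libraries, against 25.8 to 173 CPM in PBS libraries. Neither was called.

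Compared per length, the order of the genes was much the same in both groups. Elovl1 was the most abundant, at 88.4 ± 4.0 FPKM in PHZ and 63.2 ± 1.8 FPKM in PBS libraries (SD, n = 3). In PHZ libraries Fdps (54.8 ± 13.9 FPKM), Fads2 (50.6 ± 6.5), Elovl5 (42.3 ± 5.5) and Fads1 (40.9 ± 3.9) followed, within each other's spread from 1 gene to the next. In PBS libraries Elovl5, at rank 2, was above Fads2 (28.5 ± 7.0 FPKM), Fdps (27.4 ± 5.9) and Acly (24.8 ± 1.6), and those 3 did not differ beyond their spread. Fads1 ranked 5 of 34 in PHZ and 9 of 34 in PBS libraries, and Sqle ranked 17 in PHZ and 26 in PBS libraries. The ratio of Fdps to Hmgcs1, a late and an early step of the mevalonate route, was 8.85 ± 3.45 in PHZ and 3.52 ± 0.23 in PBS libraries in FPKM, and that of Sqle to Hmgcs1 was 1.67 ± 0.68 in PHZ and 0.572 ± 0.050 in PBS libraries (SD, n = 3). Neither ratio overlapped between the groups, but Fdps and Sqle were already called with separated groups, so the ratios are no separate finding. In the authors' deposited table, 3 of the 34 genes, Fads1, Sqle and Elovl6, are marked as up and 0 as down, while 546 of all genes are marked up and 1183 down.

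**Figure D4:**
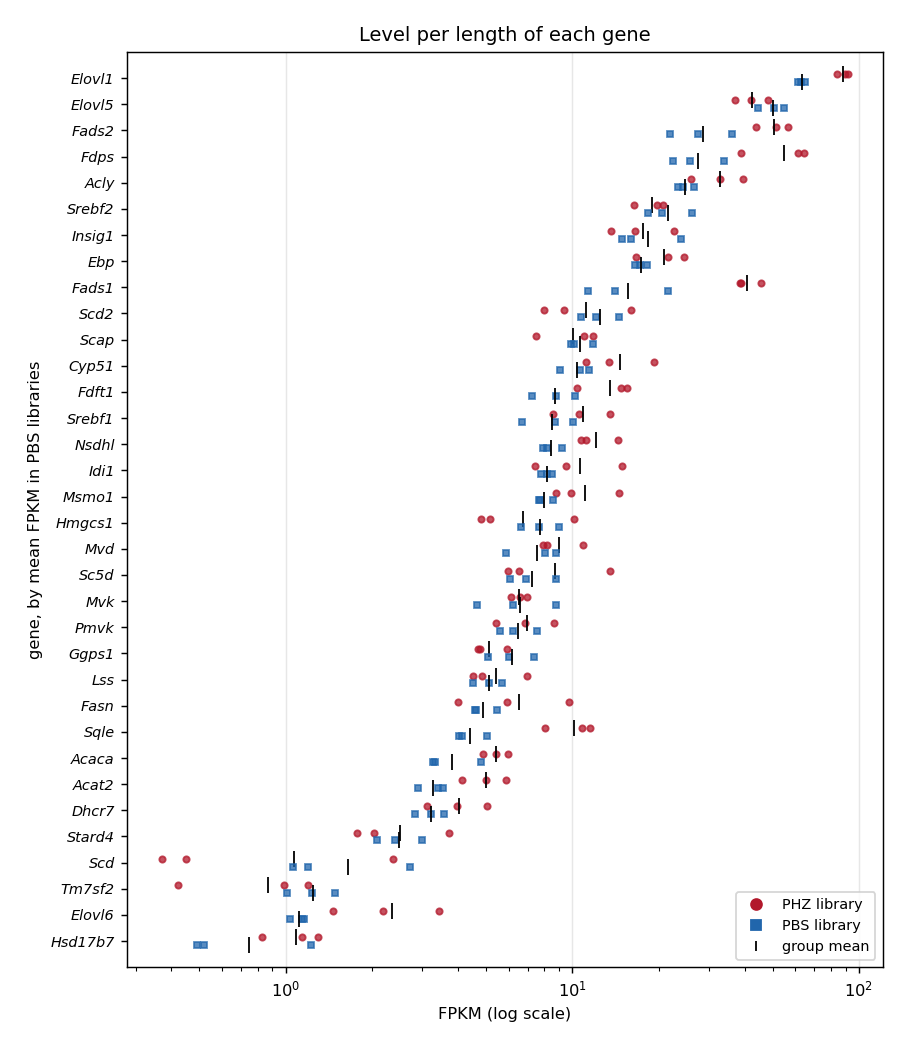
Level per length of each gene (x axis, FPKM on a log scale) in PHZ libraries (red circles) and PBS libraries (blue squares), with group means as black ticks, ordered by the PBS mean. Elovl1 stands highest and Hsd17b7, Tm7sf2, Scd and Elovl6 lowest, and Fads1, Sqle and Fdps show the PHZ points to the right of the PBS points.

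The promoters of 4 of the 5 called genes are shown because these genes rose together. RefSeq promoter windows of build GRCr8, from 250 bases before to 50 bases after the start, were held for 27 of the 34 genes (28 windows, as Srebf1 has 2). No window was held for Sqle, Fdft1, Pmvk, Stard4, Acaca, Fasn or Elovl6, so the shares below leave these genes out. Both strands were searched for TCACNCCAC, a form of the SREBP site, for CACGTG, the E-box, for CCAAT, the box bound by NF-Y, and for GGGCGG, the GC box, and ATTGG, the complement of CCAAT, can share bases with the GC box. CCAAT was in 21 of 28 windows (75.0%), against 37.5% of all 33469 windows and 38.2% of those of tested genes, and 13 genes had at least 2 copies. GGGCGG was in 21 of 28 windows, against 33.1% of all and 61.7% of tested genes. CACGTG was in 4 windows, those of Sc5d, Scap, Insig1 and Elovl5, or 14.3%, against 6.42% of all and 9.45% of tested genes. TCACNCCAC was in 0 windows, against 1.12% of all and 1.08% of tested genes. At so low a share, 0 of 28 windows cannot show that these genes lack SREBP sites. Sites with other letters would also be missed by this form. The windows of Fdps (chr2:176804767-176805066, minus strand), Fads1 (chr1:216252442-216252741, plus strand), Fads2 (chr1:216171984-216172283, minus strand) and Elovl1 (chr5:137247905-137248204, plus strand) are given 5′ to 3′ with CCAAT, or its complement ATTGG, in capitals. Fdps held 2 copies, Fads1 1 copy, and Fads2 and Elovl1 0 copies, which says only that these letters are not in those windows.
Fdps: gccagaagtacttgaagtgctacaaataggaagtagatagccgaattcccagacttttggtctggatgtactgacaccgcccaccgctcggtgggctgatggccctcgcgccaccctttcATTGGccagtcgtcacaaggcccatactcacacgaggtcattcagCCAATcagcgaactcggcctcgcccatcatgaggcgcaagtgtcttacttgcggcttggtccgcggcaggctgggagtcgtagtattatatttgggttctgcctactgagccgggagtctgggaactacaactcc
Fads1: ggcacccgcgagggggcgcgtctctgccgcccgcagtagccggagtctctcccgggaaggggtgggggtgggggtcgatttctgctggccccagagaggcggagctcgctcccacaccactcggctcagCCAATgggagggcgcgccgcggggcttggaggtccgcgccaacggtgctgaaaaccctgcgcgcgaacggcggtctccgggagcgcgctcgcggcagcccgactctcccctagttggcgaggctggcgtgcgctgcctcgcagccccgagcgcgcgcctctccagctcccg
Fads2: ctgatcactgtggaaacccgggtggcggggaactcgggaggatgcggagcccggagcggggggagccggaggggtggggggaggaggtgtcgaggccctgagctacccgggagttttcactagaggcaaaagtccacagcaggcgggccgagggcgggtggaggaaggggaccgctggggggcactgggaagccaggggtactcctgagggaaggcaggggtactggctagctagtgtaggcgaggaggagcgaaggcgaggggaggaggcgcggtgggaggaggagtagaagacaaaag
Elovl1: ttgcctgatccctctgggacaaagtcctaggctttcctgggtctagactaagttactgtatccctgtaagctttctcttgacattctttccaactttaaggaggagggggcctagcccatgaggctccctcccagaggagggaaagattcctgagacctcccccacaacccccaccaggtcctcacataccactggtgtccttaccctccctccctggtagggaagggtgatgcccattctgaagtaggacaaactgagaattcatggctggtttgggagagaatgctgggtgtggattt

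Around the pathway, 95 further genes in 7 lists were followed, 83 of which were tested. Of these, 11 rose and 4 fell, beside 8.99% and 4.17% of all tested genes, with a median log2 fold change of 0.10. None of 8 genes for SREBP cleavage and retention in the endoplasmic reticulum was called, and all 8 had log2 fold changes between -0.12 and 0.17. Of 15 genes that use prenyl groups, 2 rose, both of coenzyme Q synthesis. Coq3, a methyltransferase, had 20.8, 31.8 and 23.8 CPM in PHZ, against 12.4, 9.84 and 10.7 CPM in PBS libraries (2.32-fold, edgeR adjusted p = 0.0226), and Coq6, a ring hydroxylase, was 2.11-fold higher (edgeR adjusted p = 0.0397).

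The synthetases that make acetyl-CoA from acetate went in opposite directions. Acss2, the cytosolic and nuclear enzyme, had 15.5, 11.2 and 12.0 CPM in PHZ libraries and 20.6, 20.6 and 23.8 CPM in PBS libraries, 1.68-fold lower in PHZ (edgeR adjusted p = 0.0418). Acss1, the mitochondrial enzyme, had 88.0, 124 and 107 CPM in PHZ, against 51.0, 42.0 and 42.4 CPM in PBS libraries, 2.36-fold higher (edgeR adjusted p = 0.0179). Acsl3, which activates fatty acids for lipid droplets, was the other rise among 12 tested genes of acetyl-CoA, NADPH and acyl-CoA supply, at 2.39-fold (edgeR adjusted p = 0.0188). In 6 tested genes of further elongation and desaturation steps, Hacd3, the dehydratase of the elongation cycle, rose 1.82-fold.

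Of 15 genes of cholesterol uptake, storage and efflux, Scarb1, a lipoprotein receptor, rose 1.53-fold and 2 genes fell. Mylip, a ubiquitin ligase induced by oxysterol receptors, had 42.0, 38.1 and 48.7 CPM in PHZ, against 75.0, 58.7 and 67.1 CPM in PBS libraries (1.56-fold lower, edgeR adjusted p = 0.0412). Gramd1b, which moves cholesterol from the plasma membrane to the endoplasmic reticulum, was 2.03-fold lower (edgeR adjusted p = 0.0384). In the 13 genes of glycerolipids and lipid droplets Fabp5, a fatty acid binding protein, had 89.9, 72.9 and 43.2 CPM in PHZ, against 21.1, 16.5 and 16.6 CPM in PBS libraries, 3.80-fold higher (edgeR adjusted p = 0.0190). Lpin1, the phosphatidate phosphatase, rose 1.55-fold, and Dgat1, which completes triglycerides, was 1.65-fold lower. Of 14 genes of fatty acid oxidation 3 rose and 0 fell. They were the trifunctional protein subunits Hadha (1.59-fold) and Hadhb (1.69-fold) and the thiolase Acaa2 (1.97-fold, edgeR adjusted p = 0.0226).

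**Figure D5:**
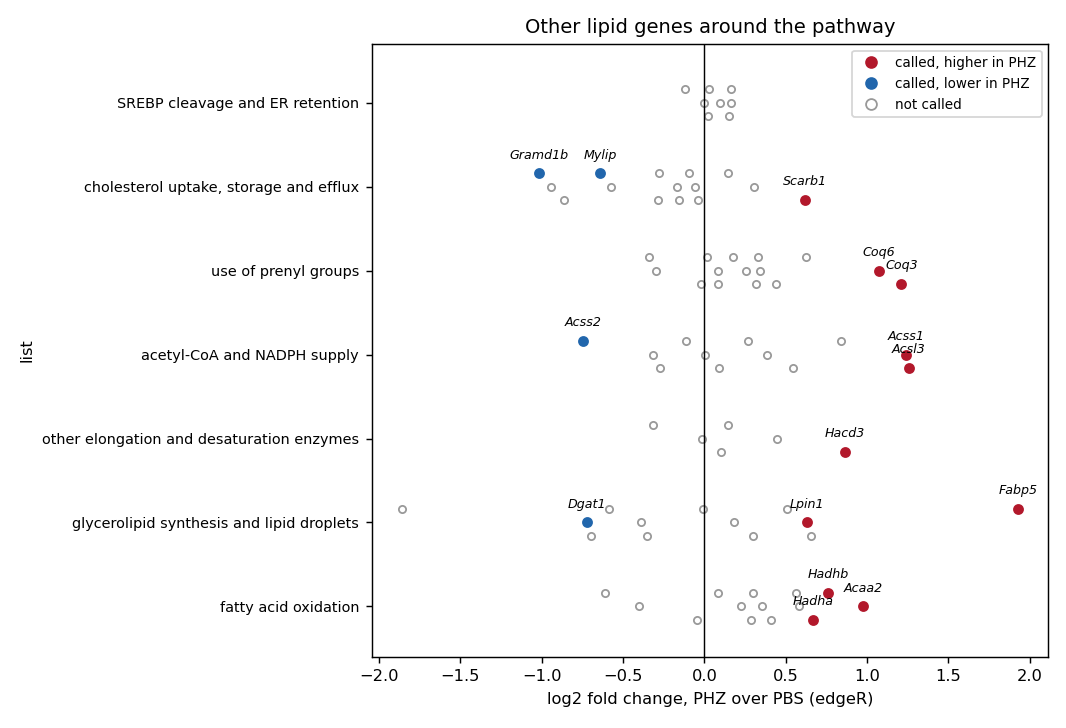
Log2 fold change of PHZ over PBS (x axis) for the tested genes of 7 lists around the pathway (rows); each point is a gene, and filled, named points are called (red higher, blue lower). Acss1 and Acss2 lie on opposite sides of 0, and no gene of SREBP cleavage and retention is called.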

How the data were processed

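Poly(A) RNA was sequenced from c-kit+ marrow cells of 3 PHZ and 3 PBS rats. The submitters' processing notes name HISAT, RSEM and GATK without roles or versions, and list rn6 as the build. How the counting treated strand is not given in the sources used here. For each rat the authors deposited, per the file headers, an expected count (estimated count, 72.8% to 74.1% of them whole) and an FPKM per gene. The authors' deposited comparison holds group mean FPKM, which equal the means of the libraries within 0.001, a log2 ratio and a score named Probability. Its gene lengths were not used.

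Unlisted genes were set to 0 and expected counts rounded. Treatment was tested with R 4.3.3 and edgeR 4.0.16 (TMM, filterByExpr, robust glmQLFit, glmQLFTest), with 4 residual degrees of freedom, and SE is the size of the log2 fold change divided by the square root of F. DESeq2 1.42.0 and limma 3.58.1 on log2(FPKM + 1) and log2(FPKM + 0.1) were alternatives, and the edgeR test was tested on simulated data. The replicate number was a block only in an alternative.

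The members and lists were chosen with earlier results of these data known. All members are named, and in each further list the called genes, at most 3. Of 187 list genes, 13 were not matched in the files. RefSeq promoters (GRCr8) were matched by gene ID. Replicates differed beyond sampling noise (chi-square per degree of freedom 49.0 to 184), so none were merged.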

Additional observations from a re-analysis of the deposited data

How the results depend on the processing

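The count of the 34 genes called at an adjusted p under 0.05 was 5 with edgeR, and 9 with DESeq2, 2 with sex as labelled as a covariate, 2 with limma on log2(FPKM + 1) without a filter, 0 without the 3 libraries against their sex label and 0 to 4 when each library was left out in turn. Over all genes the counts were 1783 with edgeR, 3389 with DESeq2, 928 with sex, 739 with limma without a filter, 2920 without both libraries numbered 1, 0 without the 3 libraries against their sex label and 0 to 1744 with each library left out. Of the 83 genes around the pathway, 15 were called with edgeR, 27 with DESeq2, 7 with sex, 9 with limma on log2(FPKM + 1) or log2(FPKM + 0.1), 5 with limma without a filter, 0 without the 3 libraries and 0 to 14 with each library left out. With the replicate number as a block, edgeR called 0 of the 34 genes, 0 of the 83 and 0 of all genes (4641 at an unadjusted p under 0.05, against 4626 without the block), and the smallest adjusted p among the 34 was 0.0593. Same-numbered libraries deviated from their group means with correlations of 0.213, 0.057 and 0.005, and not every library correlated best with its own number, so the numbers were not taken as pairs. All 5 genes stayed positive in every alternative. The causes of these changes were not tested. Motif shares of the 28 windows did not change without the 50 bases after the start.

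Log2 fold changes of 9 genes that were not called changed sign. Insig1 was 0.0146 with no expression filter, 0.0004 with the replicate block, 0.0047 with sex, 0.346 without the 3 libraries, 0.0976 without both libraries numbered 1 and -0.128 to 0.217 with each library left out. Stard4 was -0.0183 with upper-quartile scaling, -0.0278 and -0.0516 with limma at pseudocounts of 1 and 0.1, -0.116 without both libraries numbered 1 and -0.254 to 0.176 with each library left out. Without the 3 libraries against their sex label, Hmgcs1 was 0.0915, Ggps1 0.0411, Scd 0.0322 and Scd2 0.0834. Sc5d was -0.194 without both libraries numbered 1. With each library left out, Sc5d ran from -0.0755 to 0.478, Mvk from -0.0900 to 0.298 and Scap from -0.111 to 0.0807. Low counts limit Tm7sf2 and Hsd17b7, which had under 3 CPM in every library.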

Other observations

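The genes next to the called members on the chromosome were looked at after the values were seen, in the gene order of RefSeq assembly GRCr8. Of 35 tested neighbours of the 34 genes that are not members themselves, 5 were called higher in PHZ (14.3%, against 8.99% of all tested genes) and 2 lower. Of the 5, 3 adjoin a called member. Fen1, a DNA replication nuclease next to Fads1, had 65.0, 91.5 and 73.3 CPM in PHZ, against 34.4, 33.9 and 32.7 CPM in PBS libraries (2.27-fold, edgeR adjusted p = 0.0169). Pklr, the pyruvate kinase of red cells and liver, next to Fdps, had 85.0, 101 and 90.4 CPM in PHZ, against 32.5, 32.7 and 29.4 CPM in PBS libraries (2.92-fold, edgeR adjusted p = 0.0154). Cdc20, a mitotic regulator next to Elovl1, had 139, 200.1 and 164 CPM in PHZ, against 84.5, 85.2 and 87.6 CPM in PBS libraries (1.96-fold, edgeR adjusted p = 0.0218). Whether reads of adjoining genes were shared was not tested. The other 2 were Cpe, next to Msmo1, and Gclc, next to Elovl5, neither of which members was called. Fads3 (next to Fads2), Med8 (next to Elovl1) and Mtss1 (next to Sqle) also adjoin called members. They were tested but not called (edgeR adjusted p = 0.851, 0.372 and 0.396).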
